A study of Mus musculus with 27 samples.

Results

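The 10 genes described here encode proteins of the cornified envelope, transglutaminases that join them and a caspase of cornifying keratinocytes: Ivl, Lor, Tchh, Cnfn, Evpl, Ppl, Tgm1, Tgm3, Sbsn and Casp14. They were picked by name, as every probe in the array files that carries one of these gene names, which gave 10 of 28146 gene names and 14 of 41174 probes. Tchh, Evpl, Ppl and Sbsn had 2 probes each, which were averaged, and the other 6 genes had 1 probe each. The series holds 27 dual-channel Agilent arrays in 9 groups of 3, with RNA of the mouse sample in Cy5 and Universal Mouse Reference RNA, a pool made from mouse cell lines, in Cy3. Wild-type C57BL/6J mice gave whole esophagi on embryonic days E11.5 and E15.5, on the day of birth (P0) and on postnatal day 7 (P7), and the epithelium of the esophagus alone at 8 weeks. Mice lacking Nrf2 (Nrf2-/-), mice lacking Keap1 (Keap1-/-) and mice lacking both (Nrf2-/-Keap1-/-) gave whole esophagi at P7, and Nrf2-/- mice also gave adult epithelium. The labels give a C57BL/6J background for all 3 mutants. RNA came from separate animals according to the labels. All values are log2 ratios of Cy5 to Cy3 after background correction and loess, and a gene is called where limma's adjusted p was 0.05 or lower over all gene names tested.

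The cornified envelope is a shell of cross-linked protein laid down under the plasma membrane of keratinocytes as they finish differentiation, and it gives stratified squamous epithelia their mechanical strength. Envoplakin (Evpl) and periplakin (Ppl) are plakins that form its first scaffold together with involucrin (Ivl). Loricrin (Lor) is the main reinforcing protein of the epidermal envelope, trichohyalin (Tchh) is a cross-linked protein of hair follicle sheath and filiform tongue papillae, cornifelin (Cnfn) is a minor envelope component, and suprabasin (Sbsn) is a secreted protein of suprabasal keratinocytes. Transglutaminases 1 and 3 (Tgm1, Tgm3) form the bonds between these proteins, Tgm1 at the membrane and Tgm3 in the cytoplasm. Caspase 14 (Casp14) is a protease restricted to cornifying epithelia that takes part in filaggrin breakdown. The mouse esophagus is lined by a squamous epithelium that cornifies, and the esophageal tube of the embryo is first lined by a simple columnar epithelium. Nrf2, encoded by Nfe2l2, is a transcription factor that induces antioxidant genes, and Keap1 is the adaptor that marks it for degradation.

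Of the 10 genes, 8 had a start site in the RefSeq promoter table (GRCm38.p6), with 9 windows of 250 bases before the start, and the table held 32851 windows. Evpl and Ppl had no entry. On either strand, TGANTCA, the form of motif bound by AP-1 factors, was found in 3 of the 9 windows, those of Ivl, Lor and Sbsn, against 6.75% of all windows. TGACNNNGC, the core of the antioxidant response element read by Nrf2, was found in 1 of 9, that of Casp14, against 10.2% of all windows. Both motifs can overlap each other. The 4 windows with a match of either motif are shown, 5′ to 3′ on the gene's strand, and the capitals mark the matches of both motifs.
Ivl, chr3:92573736-92573985, minus strand: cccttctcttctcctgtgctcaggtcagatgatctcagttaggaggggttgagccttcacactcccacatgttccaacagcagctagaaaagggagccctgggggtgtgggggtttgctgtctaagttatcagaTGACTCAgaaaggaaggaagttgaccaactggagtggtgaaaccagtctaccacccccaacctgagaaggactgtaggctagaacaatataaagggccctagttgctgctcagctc
Lor, chr3:92083143-92083392, minus strand: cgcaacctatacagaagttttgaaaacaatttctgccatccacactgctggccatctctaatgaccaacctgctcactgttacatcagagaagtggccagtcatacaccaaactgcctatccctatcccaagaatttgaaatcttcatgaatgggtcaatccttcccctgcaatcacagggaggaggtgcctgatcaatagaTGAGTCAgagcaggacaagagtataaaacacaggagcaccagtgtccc
Sbsn, chr7:30751221-30751470, plus strand: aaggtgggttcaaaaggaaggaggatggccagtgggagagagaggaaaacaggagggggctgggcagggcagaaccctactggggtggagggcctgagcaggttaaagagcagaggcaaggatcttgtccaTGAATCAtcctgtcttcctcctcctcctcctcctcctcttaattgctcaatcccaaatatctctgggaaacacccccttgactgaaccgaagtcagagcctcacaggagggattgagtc
Casp14, chr10:78718294-78718543, minus strand: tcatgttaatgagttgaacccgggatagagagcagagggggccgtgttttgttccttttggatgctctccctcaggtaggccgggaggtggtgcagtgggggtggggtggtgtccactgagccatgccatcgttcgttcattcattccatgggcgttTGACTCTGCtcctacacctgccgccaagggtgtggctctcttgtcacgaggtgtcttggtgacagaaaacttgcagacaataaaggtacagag
The match lay 116 bases before the start in Ivl, 48 in Lor, 119 in Sbsn and 93 in Casp14. TATAAA was found in 3 of 9 windows, in Ivl 29, in Lor 27 and in Tgm3 28 bases before the start, against 12.4% of all windows. A match of letters is a description of the window and not a binding site.

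Between 58.9% and 69.3% of spots were well above background in Cy5 on each array, and the median Cy5 intensity ran from 81.8 to 226. The arrays labelled E11.5 replicate 3 and E15.5 replicate 1 stood against their labels. Over 19709 genes the former correlated at 0.981 and 0.976 with the other E15.5 arrays and at 0.831 and 0.774 with the other E11.5 arrays, and the latter at 0.958 and 0.928 with the other E11.5 arrays and at 0.804 and 0.812 with the other E15.5 arrays. Both were kept in the groups their labels give, and the calls and values that rest on them are given as labelled and then with both left out. In both fits that hold wild type and mutants, Nfe2l2 was below wild type, by 3.63 in Nrf2-/- (adjusted p = 2.38e-07), 3.86 in Nrf2-/-Keap1-/- (adjusted p = 1.47e-07) and 4.30 in adult Nrf2-/- (adjusted p = 0.000535), all on the log2 scale. Keap1 was -0.27, 0.22 and 0.64 on the Keap1-/- arrays and 0.54, 1.00 and 0.42 at wild-type P7, a difference that was not called (adjusted p = 0.145), and in Nrf2-/-Keap1-/- esophagi it was -0.99 from wild type (adjusted p = 0.0796). Whether the Keap1 probe lies in the deleted part of the gene is not given in the sources used here. The whole esophagus is a mixture, so that fewer epithelial cells and less RNA per epithelial cell cannot be told apart. All 8 markers of squamous epithelium were detected on every array from P0 on, and their median ratio ran from 3.39 to 4.16 on those arrays and from 0.91 to 3.52 on the embryonic ones.

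**Figure D1:**
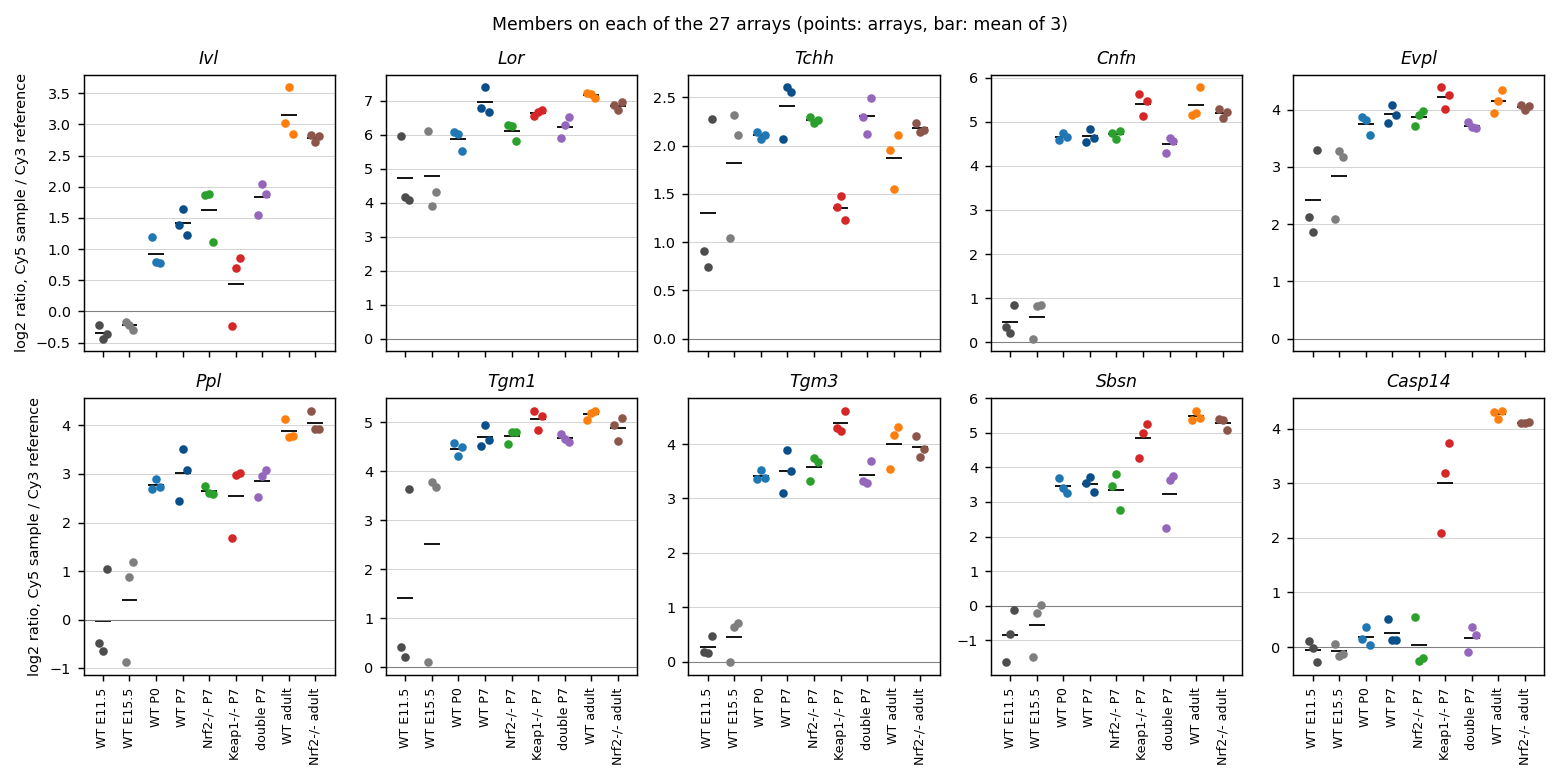
Log2 ratio of Cy5 to Cy3 on each of the 27 arrays for the 10 genes, 1 panel a gene, with a point for each array and a bar at the mean of the 3 arrays of a group. Cnfn, Tgm3 and Sbsn step up between the embryonic arrays and P0, Casp14 stays near 0 in wild type until the adult epithelium, and Casp14 and Sbsn are higher on the Keap1-/- arrays than at wild-type P7.

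As labelled, none of the 10 genes was called between E11.5 and E15.5. In limma 0 of 19709 genes were called (0% of those tested), 322 had an unadjusted p under 0.05, and 0 of the 10 were among them. None of the 10 was without overlap, and 3.73% of all genes were. The 3 arrays of each label spread widely for several of the 10. Tgm1, the membrane transglutaminase, was 0.40, 0.21 and 3.64 on the E11.5 arrays and 0.10, 3.77 and 3.67 on the E15.5 arrays, so that 1 array of each label lay with the other label. Ppl was -0.47, -0.63 and 1.04 at E11.5 and -0.87, 0.87 and 1.20 at E15.5. Evpl, its partner in the scaffold, was 2.12, 1.86 and 3.30 at E11.5 and 2.09, 3.27 and 3.18 at E15.5. In each of these genes the array that stood apart was the one named above. With both arrays left out, 13.8% of all genes were called, 8.95% higher and 4.86% lower. The 2 arrays were picked by their correlations in these same data, so the calls of this fit are not independent of that choice. Of the 10 genes, 6 were called higher at E15.5: Tgm1 by 3.41 ± 0.17 (log2, SE, adjusted p = 7.82e-06), Ppl by 1.59 ± 0.29, Tchh by 1.39 ± 0.18, Evpl by 1.23 ± 0.16, Sbsn by 1.13 ± 0.26 and Cnfn by 0.55 ± 0.13, with 2 arrays in each group. Lor then differed by -0.95 ± 0.50 (adjusted p = 0.24), and Tgm3 by 0.51 ± 0.21 (adjusted p = 0.149). On the 1 slide that held both labels, E15.5 replicate 1 against the 3 E11.5 arrays, the difference was -1.32 for Tgm1 and 1.37 for Lor.

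**Figure D2:**
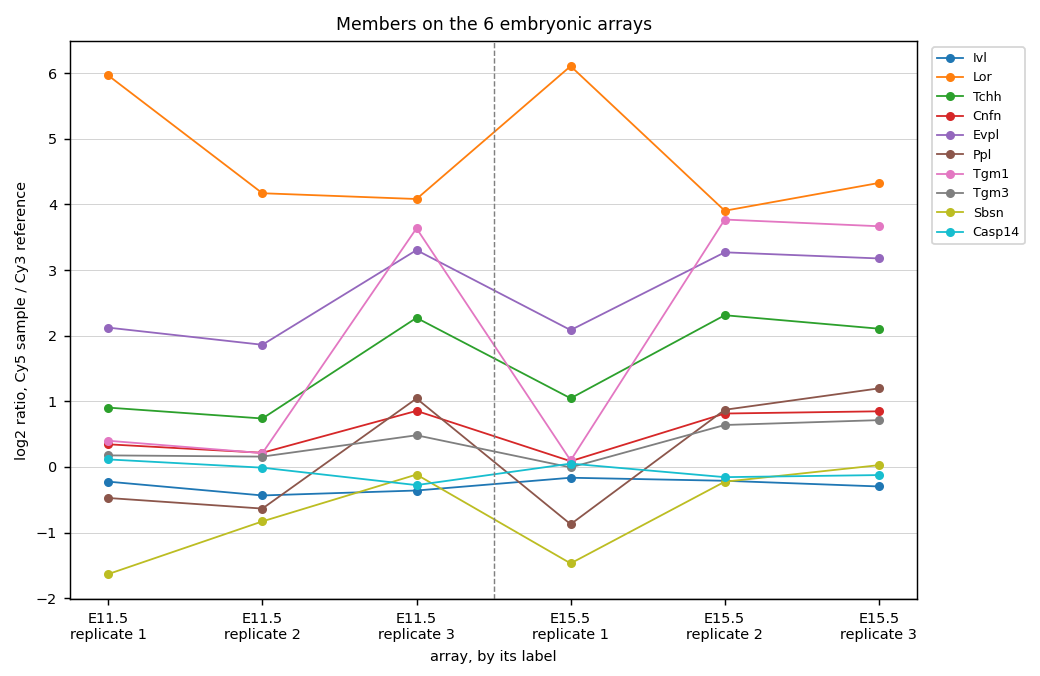
Log2 ratio of Cy5 to Cy3 of the 10 genes (1 coloured line a gene) on the 3 arrays labelled E11.5 and the 3 labelled E15.5, divided by a dashed line. Tgm1 is between 3.64 and 3.77 on 3 of the 6 arrays and between 0.10 and 0.40 on the other 3, and 1 array of each kind sits on the far side of the dashed line.

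Between E15.5 and birth 5 of the 10 genes rose and 0 fell, where 19.7% of all genes were called, 11.3% higher and 8.42% lower. Cnfn was 0.09, 0.81 and 0.85 at E15.5 and 4.59, 4.75 and 4.65 at P0, a rise of 4.08 ± 0.22 (log2, SE, n = 3 against 3, adjusted p = 1.66e-06). Sbsn was -1.47, -0.22 and 0.03 and then 3.68, 3.40 and 3.26, a rise of 4.0 ± 0.41 (adjusted p = 0.00017). Tgm3, the cytoplasmic transglutaminase, was -0.01, 0.64 and 0.71 and then 3.36, 3.52 and 3.37, a rise of 2.97 ± 0.23 (adjusted p = 2.2e-05). None of the P0 values of these 3 genes overlapped an embryonic value. Ppl rose by 2.38 ± 0.56 (adjusted p = 0.014) to 2.70, 2.90 and 2.73, a call that was lost without P0 replicate 2 (2.32, adjusted p = 0.0512). Ivl was -0.16, -0.21 and -0.30 at E15.5, where it was not well above background on any array, and 1.19, 0.80 and 0.78 at P0. Its rise (adjusted p = 0.00055) has only a lower bound, and the Cy5 signal at P0 was at least 1.87-fold that of E15.5, taking as the E15.5 level the dimmest signal among probes well above background on each array. With each spot's own local background its rise was 0.67 (adjusted p = 0.0584). In all, 7 of the 10 did not overlap between E15.5 and P0, and 43.9% of all genes did not.

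The other 5 genes were not called as labelled. Tgm1 differed by 1.95 ± 1.02 (adjusted p = 0.211), Lor by 1.10 ± 0.59 (adjusted p = 0.227), Evpl by 0.90 ± 0.38 (adjusted p = 0.122), Tchh by 0.29 (adjusted p = 0.675) and Casp14 by 0.25 (adjusted p = 0.266). With the 2 arrays that go against their labels left out, 8 of the 10 were called, where 19.5% of all genes were. Of the 5 above, Cnfn was then higher at P0 by 3.83 ± 0.12, Sbsn by 3.55 ± 0.24, Tgm3 by 2.74 ± 0.20 and Ppl by 1.75 ± 0.26, and Ivl was still called (adjusted p = 0.00162). The 3 added were Lor (1.76, adjusted p = 0.0255), Evpl (0.52, adjusted p = 0.0364) and Tgm1 (0.74, adjusted p = 0.00987). Lor was 6.11, 3.90 and 4.33 at E15.5 and 6.08, 6.03 and 5.52 at P0, and 5.97, 4.17 and 4.08 at E11.5, so that 1 array of each embryonic label was at the level of birth. As labelled, the median change of the 10 genes was 1.55, against -0.01 over all genes tested.

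From P0 to P7 none of the 10 genes was called, where 2.43% of all genes were, and 1 of the 10, Ivl, had an unadjusted p under 0.05, as had 2799 genes (14.2%). Ivl was 1.39, 1.64 and 1.22 at P7 and differed from P0 by 0.50 ± 0.14 (adjusted p = 0.121). Lor was 6.79, 7.41 and 6.68 at P7 and differed by 1.08 ± 0.59 (adjusted p = 0.467). Its SE is that of a fit shared with the embryonic arrays, on which Lor ran from 3.90 to 6.11. In a fit of P0 and P7 alone Lor was called (adjusted p = 0.0431). With both embryonic arrays left out of the shared fit, still 0 of the 10 were called, where 5.58% of all genes were. Ivl and Lor, 2 of the 10, did not overlap between P0 and P7, and 28% of all genes did not. The other 8 genes differed by 0.30 or less, all of them upwards.

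Across the whole span from E11.5 to P7, 8 of the 10 genes rose and 0 fell, where 30.2% of all genes were called, 16.8% higher and 13.3% lower. The increase was 4.38 ± 0.41 for Sbsn, 4.20 ± 0.22 for Cnfn, 3.28 ± 1.02 for Tgm1, 3.23 ± 0.23 for Tgm3, 3.04 ± 0.56 for Ppl, 2.22 ± 0.59 for Lor and 1.49 ± 0.38 for Evpl (log2, SE, n = 3 against 3). Ivl, the 8th, was not well above background on any E11.5 array, so that its rise (adjusted p = 2.91e-05) has only a lower bound, a P7 Cy5 signal at least 2.54-fold that of E11.5. With both embryonic arrays left out, 9 of the 10 were called, where 40.5% of all genes were, and the increase was 4.75 ± 0.24 for Sbsn, 4.39 ± 0.12 for Cnfn, 4.39 ± 0.15 for Tgm1, 3.57 ± 0.26 for Ppl, 3.33 ± 0.20 for Tgm3, 1.93 ± 0.15 for Evpl, 1.89 ± 0.46 for Lor and 1.59 ± 0.17 for Tchh, with 2 arrays at E11.5. The call of Tgm1 (adjusted p = 0.0337) was lost when any 1 of the 3 wild-type P7 arrays or E11.5 replicate 1 or 2 was left out (2.67 to 3.37, adjusted p from 0.0714 to 0.118). It was also lost with the slide as a random block (3.11, adjusted p = 0.0645) and with median centring (2.15, adjusted p = 0.0609), where Evpl was lost too (1.0, adjusted p = 0.0873). Lor was lost without P7 replicate 2 (adjusted p = 0.0619) or E11.5 replicate 2 (adjusted p = 0.0607), and Evpl without E11.5 replicate 1 (adjusted p = 0.0566). Tchh differed by 1.10 ± 0.41 (adjusted p = 0.0636), and it was called with the replicate number as a block (adjusted p = 0.0415), where the numbers pair these groups, with its brightest probe alone (2.25, adjusted p = 0.045) and with both embryonic arrays left out. The second Tchh probe was well above background on 2 of 27 arrays. Averaging it in makes most changes given for Tchh smaller than those of its brighter probe. Casp14 was 0.11, -0.01 and -0.28 at E11.5 and 0.51, 0.14 and 0.13 at P7, and differed by 0.32 ± 0.15 (adjusted p = 0.135). It was well above background on 1 of the 3 E11.5 arrays. In all, 9 of the 10 did not overlap between E11.5 and P7, and 42.8% of all genes did not. The F-test over the 4 wild-type stages called 7 of the 10, all but Tgm1, Tchh and Casp14, where 30% of all genes were called, and with both embryonic arrays left out it called 9, all but Casp14, where 45.8% of all genes were called.

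The size of these changes depended on the second channel. The Cy3 signal came from the same reference RNA on every array, and yet it rose with Cy5 at the spots of most of the 10 genes. At the Cnfn probe the Cy3 mean intensity ran from 182 to 16006 over the 27 arrays and correlated with Cy5 at 0.97 (log scale, arrays that share group and depth). Its mean Cy5 intensity was 1145 times higher in adult than in E11.5 arrays, and its mean Cy3 intensity 42.6 times. The same folds were 167 and 20.9 at the Tgm3 probe, 135 and 14 at the Tgm1 probe and 46.3 and 6.71 at the Lor probe, whereas the median Cy3 intensity of the whole array was 0.863 times as high. They were 195 and 3.58 at the brighter Sbsn probe and 81.7 and 4.55 at the brighter Ppl probe. The Evpl probes had folds of 59.7 and 14.7, and of 52.5 and 12.9, and the Casp14 probe 22 and 1.63. At the dimmer probes of Sbsn and Ppl, Cy3 was 1.28 and 1.22 times as high. At the brighter Tchh probe the folds were 2.23 and 0.998, and at the Ivl probe, whose Cy5 was not above background at E11.5, Cy3 was 1.11 times as high. The cause was not tested. With Cy5 alone, an alternative added after the data were seen, the rise from E15.5 to P0 was 8.17 for Cnfn, 4.87 for Tgm3 and 4.19 for Sbsn, and Tgm1 (3.82, adjusted p = 0.0276) and Evpl (3.63, adjusted p = 0.00906) were called too. Log2 ratios of Cnfn, Tgm1, Tgm3, Evpl, Lor, Ppl, Sbsn and Casp14 are therefore given as measured differences of the ratio. They are not given as the full change of the mRNA.

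**Figure D3:**
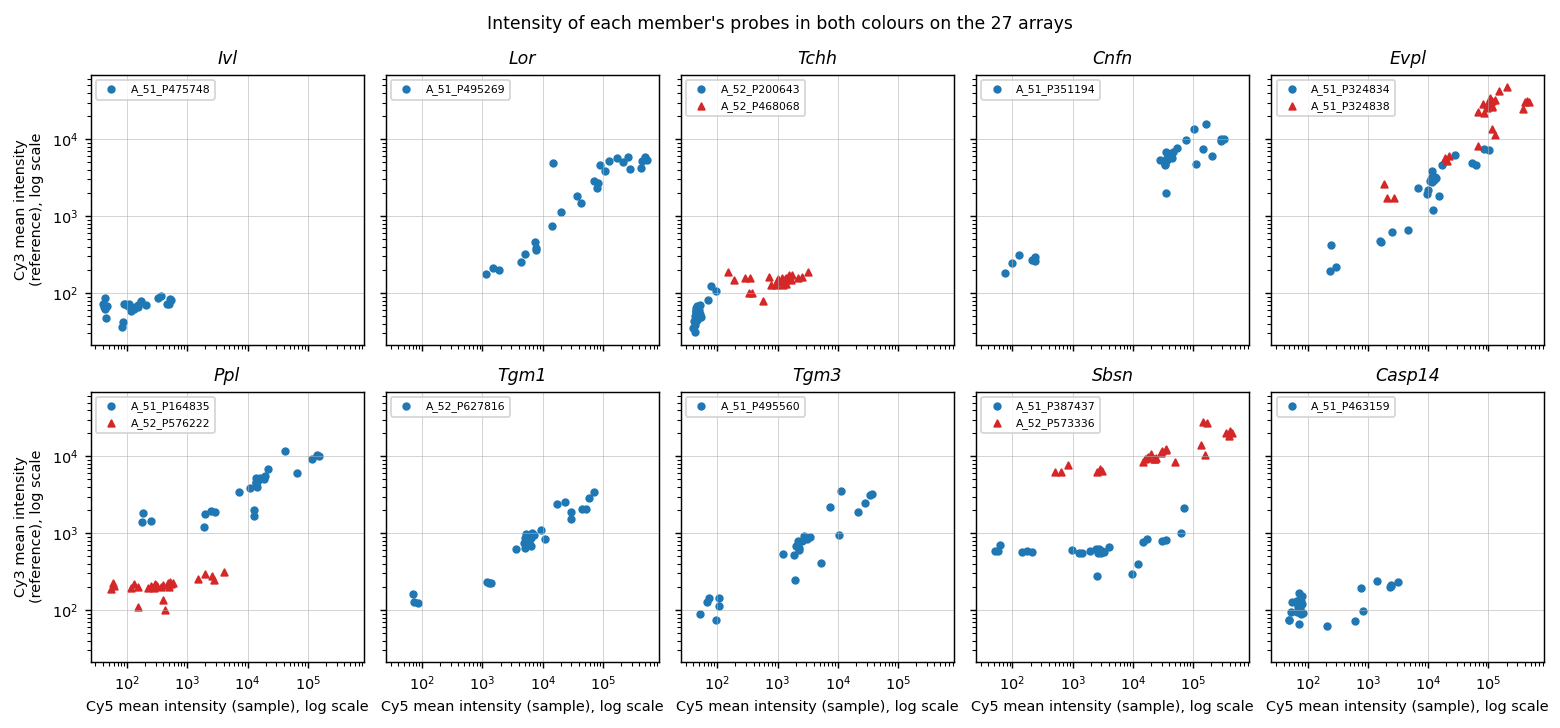
Mean Cy5 (x axis) and Cy3 (y axis) intensity of every probe of the 10 genes on the 27 arrays, both on a log scale, with 1 panel a gene, 1 point an array and a second symbol for a second probe. Cy3, which came from 1 reference RNA, rises with Cy5 at the probes of Cnfn (r = 0.97), Tgm1 (r = 0.952) and Tgm3 (r = 0.945), and much less at Ivl (r = 0.417) and at the brighter probe of Tchh (r = 0.282).

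Between P7 and the adult epithelium 6 of the 10 genes rose in wild type and 0 fell, where 43% of all genes were called, 20% higher and 23% lower. Whole esophagus at P7 was compared here with epithelium alone, so that age and tissue cannot be told apart. The median ratio of 6 markers of striated muscle was 4.47 to 5.38 at P7 and 1.08 to 2.41 in adults, that of 6 mesenchymal markers 1.37 to 1.81 and -1.18 to -0.86, and that of 8 squamous markers 3.73 to 4.09 and 3.81 to 4.16, and their part in the changes was not tested. Casp14 was 0.51, 0.14 and 0.13 at P7 and 4.29, 4.17 and 4.33 in adults, a rise of 4.0 ± 0.14 (log2, SE, n = 3 against 3, adjusted p = 5.43e-06). Its Cy5 intensity at P7 was only 67 to 78.4, though well above background on all 3 arrays. Sbsn was 3.54, 3.72 and 3.28 and then 5.37, 5.64 and 5.42, a rise of 1.96 ± 0.15 (adjusted p = 0.000105). Ivl was 1.39, 1.64 and 1.22 and then 3.02, 3.60 and 2.85, a rise of 1.74 ± 0.22 (adjusted p = 0.00076). With Feature Extraction's processed signals (1.06, adjusted p = 0.0554) and the deposited ratios (1.06, adjusted p = 0.0567) Ivl was not called. None of these 3 overlapped between the groups. Compared with E11.5, where Ivl was not well above background on any array, its adult Cy5 signal was at least 8.66-fold higher.

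Smaller rises were called for Ppl (0.87 ± 0.27, adjusted p = 0.0333), Cnfn (0.71 ± 0.19, adjusted p = 0.022) and Tgm1 (0.46 ± 0.15, adjusted p = 0.038). Cnfn was lost without wild-type P7 replicate 1 or 3 (0.64 and 0.69), with scale normalization between arrays (0.012, adjusted p = 0.967), with median centring (1.16, adjusted p = 0.0706) and with each spot's own local background (0.47, adjusted p = 0.106). Ppl (0.59 to 0.94) and Tgm1 (0.37 to 0.52) were lost without any array but wild-type P7 replicate 2, and also with the scan as a block, the replicate block, scale normalization (0.41 and -0.21) or all 27 arrays in 1 fit. With each spot's own local background, where spots of high background were kept, Casp14 was higher by 2.17 (adjusted p = 0.0715), Ivl by 0.018 (adjusted p = 0.99), Ppl was at -0.069 and Tgm1 at -0.051, and Sbsn was still called. In the 5 arrays of the same scan the differences were 3.97 for Casp14, 1.99 for Sbsn, 1.89 for Ivl, 0.93 for Ppl, 0.50 for Cnfn and 0.43 for Tgm1. Tgm3 differed by 0.50 (adjusted p = 0.163), Lor by 0.21 (adjusted p = 0.419), Evpl by 0.23 and Tchh by -0.54 (adjusted p = 0.0694), and none was called. Tchh was called lower in adults with its brightest probe alone (-1.12, adjusted p = 0.0245), with scale normalization (-0.86, adjusted p = 0.01), with own local background (-1.53, adjusted p = 0.019) and without wild-type P7 replicate 1 (-0.71, adjusted p = 0.0333). With Cy5 alone Tgm3 (2.12, adjusted p = 0.000731) and Lor (1.02, adjusted p = 0.0477) were called as higher in adults. In all, 6 of the 10 did not overlap between P7 and adult, and 56% of all genes did not.

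**Figure D4:**
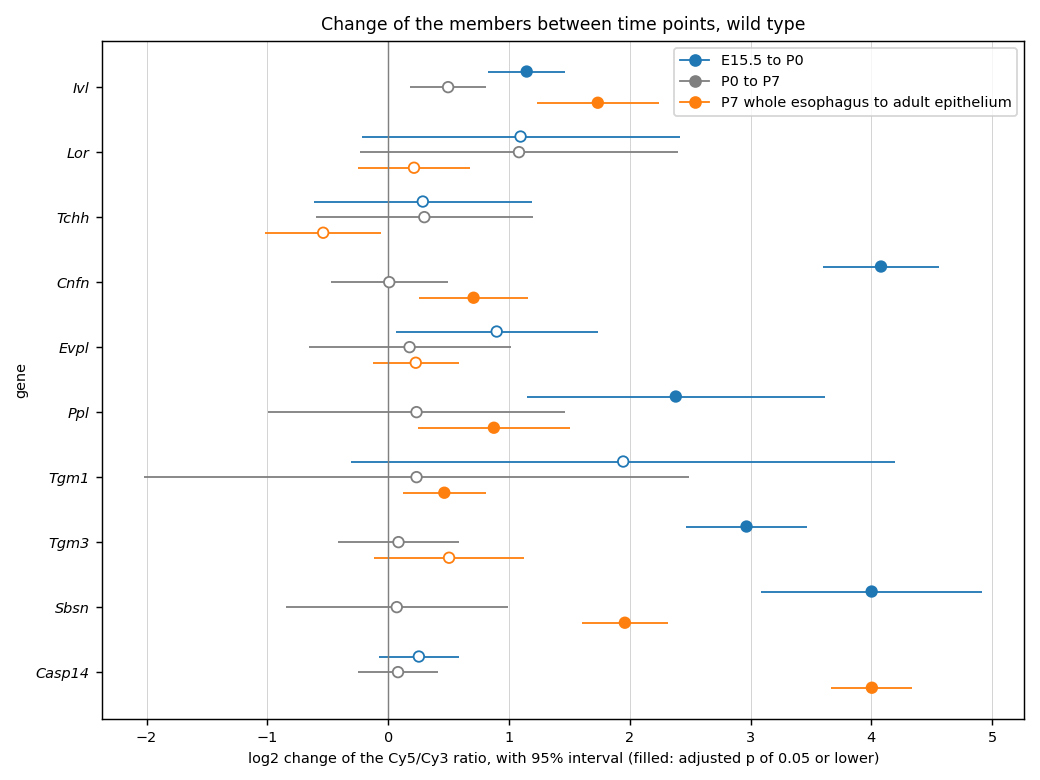
Log2 change of each of the 10 genes from E15.5 to P0, from P0 to P7 and from P7 to adult in wild type, with a point at the fitted difference, a bar for its 95% confidence interval and a filled point where it was called. Cnfn, Sbsn and Tgm3 have their largest step from E15.5 to P0, and Casp14 has its own between P7 whole esophagus and adult epithelium (4.0).

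Keap1-/- and wild-type esophagi were compared at P7. Of the 10 genes 4 were higher and 2 lower in Keap1-/- esophagi, where 33.3% of all genes were called, 15.4% higher and 18% lower. The 3 Keap1-/- arrays were the only ones on their slide and in their scan, and their software version differed from that of the wild-type P7 arrays. Genotype, slide, scan and software version can therefore not be told apart. Casp14 was 2.09, 3.18 and 3.74 in Keap1-/- against 0.51, 0.14 and 0.13 in wild type, a rise of 2.74 ± 0.36 (log2, SE, n = 3 against 3, adjusted p = 0.000272). Its Cy5 intensity was only 67 to 78.4 in wild type, against 208 to 845 in Keap1-/-. Its lowest Keap1-/- value was above every wild-type P7 value and below every adult value. Cnfn was 5.62, 5.13 and 5.48 against 4.53, 4.84 and 4.64, a rise of 0.74 ± 0.14 (adjusted p = 0.0029). Tgm3 was 4.29, 4.24 and 4.61 against 3.11, 3.89 and 3.50, a rise of 0.88 ± 0.20 (adjusted p = 0.00712). Sbsn was 4.27, 4.99 and 5.26 against 3.54, 3.72 and 3.28, a rise of 1.32 ± 0.40 (adjusted p = 0.0276). With scale normalization between arrays neither Cnfn (0.42, adjusted p = 0.154) nor Sbsn (1.07, adjusted p = 0.0587) was called, and Sbsn was not called with outlier-marked spots left out (1.40, adjusted p = 0.0613).

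The scaffold protein Ivl and Tchh, a protein of the hair follicle sheath, went the other way. Tchh was 1.36, 1.48 and 1.23 in Keap1-/- and 2.06, 2.61 and 2.55 in wild type, and fell by 1.05 ± 0.15 on the log2 scale (SE, adjusted p = 0.000451). Its brighter probe alone was 2.60, 2.94 and 2.46 against 4.09, 5.15 and 4.97. The dimmer probe, near background, had means of 0.05 and 0.08. The fall of the averaged probes is therefore smaller than that of the brighter probe, whose means were 2.66 and 4.74. Ivl was -0.23, 0.70 and 0.86 against 1.39, 1.64 and 1.22 and fell by 0.97 ± 0.29 on the log2 scale (adjusted p = 0.0255). It was well above background on 2 of the 3 Keap1-/- arrays, and the value of -0.23 is that of the other array. With Feature Extraction's processed signals (-2.10, adjusted p = 0.153) and the deposited ratios (-2.10, adjusted p = 0.154) Ivl was not called. Ivl was lost when wild-type replicate 1 or 2, or Keap1-/- replicate 1, was left out (-0.99, -0.86 and -0.64), and Sbsn when wild-type replicate 1 or 3, or Keap1-/- replicate 2 or 3, was left out (1.34, 1.21, 1.25 and 1.11). Evpl and Tgm1 were called without wild-type replicate 2 (0.38 and 0.50) or Keap1-/- replicate 2 (0.41 and 0.48). The other 4 were not called: Tgm1 differed by 0.37 (adjusted p = 0.059), Evpl by 0.30 (adjusted p = 0.0789), Lor by -0.32 (adjusted p = 0.28) and Ppl by -0.46 (adjusted p = 0.346). With Cy5 alone Casp14 (2.43), Tchh (-0.87) and Ivl (-0.77, adjusted p = 0.0443) were still called and Tgm1 (1.62, adjusted p = 0.00245) was added, while Cnfn (0.69), Tgm3 (0.99) and Sbsn (1.36) were not. In all, 6 of the 10 did not overlap, as 45.1% of all genes did not. The median ratio of 4 markers of simple epithelium was -3.79 to -3.59 on the Keap1-/- arrays and 0.57 to 1.06 on the wild-type ones, and that of 6 mesenchymal markers 0.13 to 0.44 and 1.37 to 1.81, that of 6 smooth muscle markers 2.29 to 3.31 and 3.07 to 3.46 (5 called lower and 1 higher, median -1.17), while 8 squamous markers were at 3.82 to 4.14 and 3.73 to 4.09. Krt10, a keratin of epidermal suprabasal cells, was 0.72, 1.80 and 2.01 on the Keap1-/- arrays and 3.34, 3.73 and 0.88 on the wild-type ones. Its partner Krt1 was 0.64, 2.54 and 2.76 and then 2.94, 3.28 and 1.00. Replicate 1 was the lowest Keap1-/- array for both keratins, as it was for Casp14, Sbsn, Ivl, Ppl and Lor. It was the highest for Cnfn, Evpl and Tgm1. Krt2, Krt71 and Krt25, the other markers of epidermis and hair, lay between -0.32 and 0.29 on the Keap1-/- and wild-type P7 arrays. Of these values only Krt2 on Keap1-/- replicate 3 was well above background. The part of these markers in the changes was not tested.

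**Figure D5:**
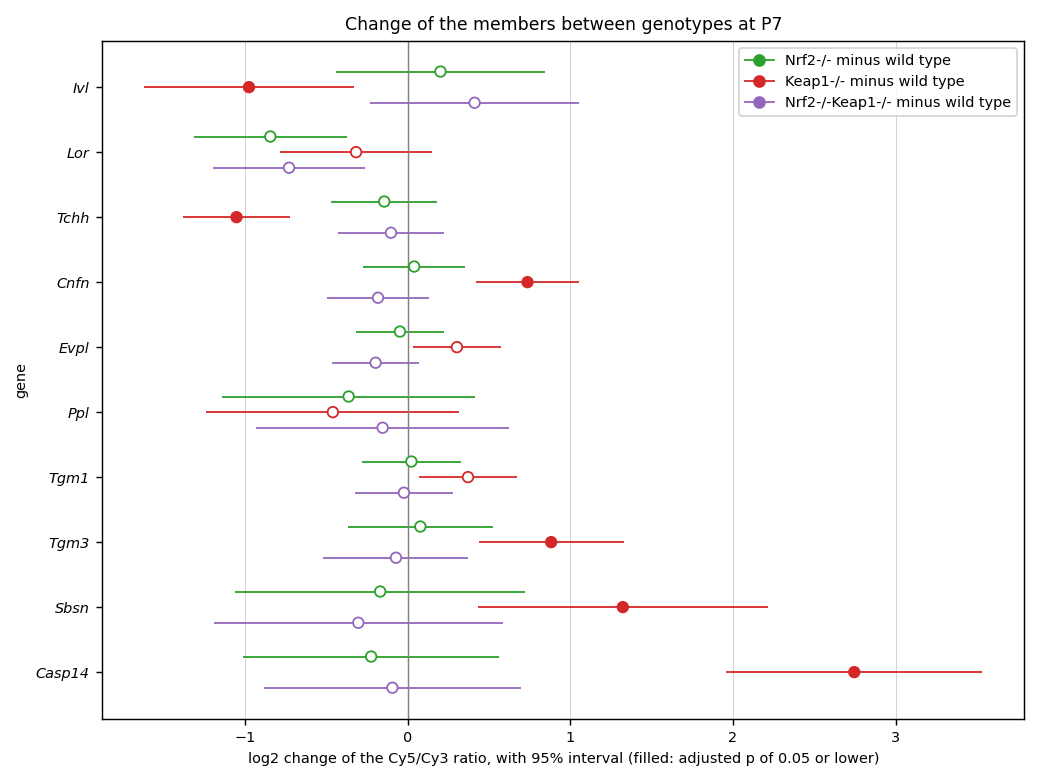
Log2 difference of each of the 10 genes from wild type at P7 in Nrf2-/-, Keap1-/- and Nrf2-/-Keap1-/- esophagi, with a point at the fitted difference, a bar for its 95% confidence interval and a filled point where it was called. The 6 filled points are all Keap1-/-, from 2.74 for Casp14 to -1.05 for Tchh, and the other 2 genotypes have none. Tchh is the mean of 2 probes, of which the dimmer was near background.

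Where Nrf2 was also absent, none of these changes was called. In Nrf2-/-Keap1-/- against wild type 0 of the 10 were called, where 0.43% of all genes were (60 higher and 22 lower), and 1, Lor (-0.73 ± 0.21, adjusted p = 0.13), had an unadjusted p under 0.05. Lor was also the 1 gene of the 10 whose ratios had no overlap, where 21.6% of all genes had none. Its Cy5 intensity did overlap, at 7689 to 127440 in Nrf2-/-Keap1-/- and 43510 to 83453 in wild type. The Nrf2-/-Keap1-/- and wild-type arrays were on different slides, so that the difference of Lor and the slide cannot be told apart. Casp14 was -0.09, 0.37 and 0.22 in Nrf2-/-Keap1-/- and differed from wild type by -0.09 (95% confidence interval -0.88 to 0.70). Tchh was 2.30, 2.12 and 2.50 and differed by -0.10 (-0.43 to 0.23). Cnfn differed by -0.18 (-0.50 to 0.13) and Tgm3 by -0.07 (-0.52 to 0.38). Ivl was 1.55, 2.05 and 1.89 (mean 1.83, wild type 1.42), and Sbsn 2.26, 3.62 and 3.76 (mean 3.22, wild type 3.52). Keap1-/- was then compared with Nrf2-/-Keap1-/-, which shares the Keap1-/- arrays with the comparison above. These groups too shared no slide, scan or software version, so that genotype cannot be told apart from these. Of the 10, 6 were higher and 2 lower in Keap1-/-, where 33.3% of all genes were called, 15.1% higher and 18.2% lower. The 6 were Casp14 (2.84), Sbsn (1.62), Tgm3 (0.95), Cnfn (0.92), Evpl (0.50) and Tgm1 (0.39), and the 2 were Ivl (-1.39) and Tchh (-0.95). In all, 9 of the 10 did not overlap between these groups, and 48.5% of all genes did not. Tgm1 was not called with the replicate number as a block (adjusted p = 0.0774), where the numbers pair these groups, nor in 9 of the 12 fits that left out 1 array (adjusted p up to 0.132), and Evpl was -0.40 with Cy5 alone (adjusted p = 0.287).

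The effect of Keap1 loss differed by Nrf2 genotype for 4 of the 10 genes, 1 with a positive and 3 with a negative interaction, where 15.1% of all genes were called, 7.94% positive and 7.16% negative. The interaction, the Keap1 effect without Nrf2 minus that with Nrf2, was -2.61 ± 0.50 for Casp14 (adjusted p = 0.00682), -1.03 ± 0.29 for Tgm3 (adjusted p = 0.0342), -0.96 ± 0.20 for Cnfn (adjusted p = 0.0102) and 1.09 ± 0.21 for Tchh (adjusted p = 0.00662). Casp14 was well above background on 1 of the 3 Nrf2-/- arrays. Tgm3 was lost in 8 of the 12 fits that left out 1 array (-0.83 to -1.10, adjusted p up to 0.0871). With Feature Extraction's processed signals the interaction was -2.78 for Casp14 (adjusted p = 0.142), 0.89 for Tchh (adjusted p = 0.0952) and -1.03 for Tgm3 (adjusted p = 0.0505), and with Cy5 alone it was -2.21 for Casp14 (adjusted p = 0.0153), -1.24 for Tgm3 (adjusted p = 0.264) and -0.31 for Cnfn (adjusted p = 0.742). Cnfn was not called with scale normalization (-0.93, adjusted p = 0.0624), nor Tchh with all 27 arrays in 1 fit (adjusted p = 0.113). Those of Ivl (1.18, adjusted p = 0.0782) and Sbsn (-1.46, adjusted p = 0.111) were not called, but Ivl was with the slide as a random block (1.22, adjusted p = 0.0405), with all 27 arrays in 1 fit (adjusted p = 0.0285) and with median centring (1.08, adjusted p = 0.0404). In Nrf2-/- esophagi against wild type at P7, 0 of the 10 were called, where 0.0157% of all genes were, and 1 had an unadjusted p under 0.05, as had 2040 genes (10.7%). That gene was Lor, which was 6.28, 6.26 and 5.81 in Nrf2-/- and 6.79, 7.41 and 6.68 in wild type, a difference of -0.84 ± 0.21 (adjusted p = 0.349). It was the 1 gene of the 10 whose ratio did not overlap between these groups, where 16.4% of all genes did not. In Cy5 intensity Lor did overlap, at 4374 to 88128 in Nrf2-/- and 43510 to 83453 in wild type. The 3 Nrf2-/- arrays and the 3 wild-type arrays were on different slides, so that the difference of Lor and the slide cannot be told apart.

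In adult epithelium the same comparison called 0 of the 10 genes, where 0.499% of all genes were called. By unadjusted p, 1 of the 10 passed 0.05, against 3044 genes (16.9%), and this was Lor. Lor was 7.24, 7.19 and 7.08 in wild type and 6.88, 6.73 and 6.96 in Nrf2-/-, a difference of -0.32 ± 0.12 (adjusted p = 0.249, 95% confidence interval -0.59 to -0.04). Casp14 was 4.29, 4.17 and 4.33 in wild type and 4.10, 4.10 and 4.11 in Nrf2-/-, and differed by -0.16 (-0.41 to 0.09). Ivl differed by -0.37 (-0.81 to 0.08) and Tchh by 0.31 (-0.06 to 0.68). For the other 6 the interval of the difference lay within -0.61 and 0.53. A test of the Nrf2 effect in adults minus that at P7 called 0 of 10, where 0.098% of all genes were called, and 0 of the 10 had an unadjusted p under 0.05. In all, 4 of the 10 did not overlap between the adult groups, and 22.7% of all genes did not. Wild-type replicates 1 and 2 came from another scan and software version than all Nrf2-/- arrays, and no slide held both adult genotypes. Genotype can therefore not be fully told apart from slide and scan. In the 3 arrays of 1 scan, 2 Nrf2-/- against 1 wild type, the difference was -0.60 for Cnfn, -0.46 for Tgm1, -0.28 for Lor and -0.23 for Casp14. Ppl (0.33) and Tchh (0.08) went the other way.

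Other genes of cornification were read from 5 lists. Of 12 tested neighbours in the envelope, 8 rose from E15.5 to P0 and 0 fell, where 11.3% of all genes rose and 8.42% fell (median of the list 2.36, of all genes -0.01), among them Crct1, a gene of the epidermal differentiation complex (4.76 ± 0.18, adjusted p = 2.42e-07), and Scel, encoding sciellin (3.45 ± 0.71, adjusted p = 0.00778). With both embryonic arrays left out, for these lists an alternative added after the data were seen, 8 of 12 rose too (median 1.86), and Scel by 2.71 ± 0.29. From P0 to P7, where none of the 10 genes was called, 4 of 12 neighbours rose and 0 fell, where 2.43% of all genes were called: Kprp (3.96, adjusted p = 0.00874), Rptn (2.11), Calm4 (1.99) and Cdsn (1.51), of which Cdsn encodes corneodesmosin, an adhesion protein between corneocytes. With both embryonic arrays left out it was 6 of 12, where 5.58% of all genes were called. In adults 9 of 13 were higher and 0 lower, where 20% of all genes were higher and 23% lower, led by Hrnr (5.18 ± 0.50), which encodes hornerin, a filaggrin relative. In Keap1-/- esophagi at P7, 3 of 12 were higher and 2 lower, 5 of 12 where 33.3% of all genes were called, 15.4% higher and 18% lower (median 0.64, against -0.02 over all genes), with Cdsn at 2.13, Dmkn at 1.75, Scel at -1.82 and Calml3 at -1.48.

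Of 12 tested genes of the lipid envelope, 8 rose at birth and 12 were higher in adults, with 0 lower in either, and 9 were higher in Keap1-/- with 0 lower (median 1.44). The shares of all genes that were higher were 11.3% at birth, 20% in adults and 15.4% in Keap1-/-. At birth it was again 8 of 12 with both embryonic arrays left out. Those higher in Keap1-/- included the lipoxygenase Aloxe3 (2.45), the fatty acid elongase Elovl1 (2.15) and the lipid transporter Abca12 (1.90). Among the other transglutaminases 1 of 5, Tgm5, rose at birth (1.30 ± 0.29, adjusted p = 0.0121, and 1.44 with both embryonic arrays left out), and in adults Tgm5 was higher (1.76) while Tgm2 (-1.24) and F13a1 (-1.13) were lower, of 4 tested. In Keap1-/- 1 of 4, Tgm2, was lower (-0.70, adjusted p = 0.0271). Of 11 proteases and inhibitors 3 were higher and 4 lower in Keap1-/- (median -0.21), where 15.4% of all genes were higher and 18% lower. Among them were Blmh, whose product degrades filaggrin peptides, by 2.12, the lysosomal protease Ctsd by 1.79 and the cystatin Cst6 by 1.64, and Casp6 at -1.40. Of 17 regulators 5 were higher in Keap1-/- and 0 lower (median 0.19), where 15.4% of all genes were higher and 18% lower. The share called in either direction was below the 33.3% of all genes. They included Cebpb (2.14), Cebpa (1.43), Ovol1 (1.36) and Klf4 (0.82), and Cebpb and Cebpa had interactions of -2.16 and -1.71. In Nrf2-/- at P7, in Nrf2-/-Keap1-/- against wild type and in adult Nrf2-/-, 0 genes of any list were called.

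Over the 27 arrays the 45 pairs of the 10 genes correlated at -0.151 to 0.991, with a median r of 0.707. These arrays share groups, so that r mostly reflects differences between groups and has no p here. The highest was between Cnfn and Tgm3, which step up together at birth, and 1 pair, Tchh and Casp14, was negative. Evpl and Tgm1, which already differed among the embryonic arrays, correlated at 0.97. Among 20725 gene names outside the 10, the gene most like Casp14 was Dsg1b, a desmoglein (r = 0.991), that most like Tgm1 was Krt13, a keratin of internal squamous epithelia (0.992), and that most like Evpl was Ggt6 (0.98). For both Cnfn (0.993) and Tgm3 (0.987) it was 2310002J15Rik. The closest was Hsbp1l1 for Ivl (0.965), Sytl1 for Sbsn (0.986), Edn2 for Tchh (0.913) and Myl7 for Lor (0.875), and for Ppl a probe with no gene name (0.987).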

How the data were processed

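RNA of 27 mouse samples in 9 groups of 3 was hybridised in Cy5 against reference RNA in Cy3, without dye swap. The scanner files deposited by the authors hold the mean intensity and local background intensity of each spot in both colours, and the log10 ratios deposited beside them equalled the log ratios of Feature Extraction to within 0.005. The submitters' processing notes name Agilent Feature Extraction 9.1, whereas the file headers name 2 later versions. From the deposited intensities, log2 ratios were computed after normexp correction (offset 50) and loess within each array. Control spots were left out and outlier-marked spots kept, since most of the brightest spots of the 10 genes carried the mark on some arrays. Spots whose local background exceeded the array's median 5-fold in either colour were left out. Probes of a gene name were averaged. Names came from the newest annotation in the files, and 9421 probes, none of the 10 genes, had another name in older ones.

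Tests used limma 3.58.1 and statmod 1.5.0 in R 4.3.3, with the data.table package (version 1.17.8), and figures used Python 3.11.15 with matplotlib 3.10.9. Gene names entered a fit when a probe exceeded background clearly in Cy5 on 3 or more of its arrays and every group had 2 or more values. Fits held the 12 wild-type arrays to P7, the 6 of wild-type P7 and adult, the 12 of P7, the 6 of adults, or the 12 of both ages, and p-values were adjusted by Benjamini-Hochberg over all genes tested. The scripts were tested on simulated data. The study's own permutation analysis was not repeated. All 10 genes were named throughout, together with at most 4 called genes of each list with the largest change and, for each of the 10, the gene with the highest correlation. The 10 genes and the lists were chosen with earlier results of these data known. Replicate numbers were taken as pairing the samples where the deviations of all same-numbered samples from their group means correlated above 0.1, which held in 3 of 10 comparisons (P0 with P7, E11.5 with P7, Keap1-/- with Nrf2-/-Keap1-/-), and r ran from -0.45 to 0.64 over all pairs. Alternatives changed the background correction, normalization, outlier marks, probe, filter, arrays in the fit, block, threshold and channel. With 3 arrays a group the precision is limited by their number.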

Additional observations from a re-analysis of the deposited data

Results flagged for a closer look

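In 4 of the 10 genes the effect of Keap1 loss at P7 differed between mice with and without Nrf2 in limma's test of that difference, over 12 arrays. The Keap1 effect without Nrf2 minus that with Nrf2 was -2.61 for Casp14 (adjusted p = 0.00682), -1.03 for Tgm3 (adjusted p = 0.0342), -0.96 for Cnfn (adjusted p = 0.0102) and 1.09 for Tchh (adjusted p = 0.00662), all on the log2 scale. The Keap1-/- arrays shared a slide and a scan with no other group, and the part of these in the 4 differences cannot be told apart from that of the genotype. Leaving out 1 array at a time, 3 to 4 of the 10 genes had a called interaction, and Tgm3 was lost in 8 of the 12 fits.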

How the results depend on the processing

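Of the single-gene values recomputed under the alternatives, 114 lost a call, 48 gained one and 4 with a call in either fit reversed. A further 231 were called in neither fit and moved by more than the SE of the main fit. The other 2809 kept their call, or stayed uncalled within that SE. Where neither fit had a call the direction was not compared. The reversed values were those of Ppl from P7 to adult with each spot's own local background (-0.069), of Tgm1 in the same comparison with own background (-0.051) and with scale normalization between arrays (-0.21), and of Evpl in Keap1-/- against Nrf2-/-Keap1-/- with Cy5 alone (-0.40). With outlier-marked spots left out, the number of the 10 genes called was 4 in the F-test, 5 from E11.5 to P7, 3 from P7 to adult and 5 in Keap1-/- against Nrf2-/-Keap1-/-, where fewer of the 10 could be tested. With both embryonic arrays left out it was 6 from E11.5 to E15.5 and 8 from E15.5 to P0, where 13.8% and 19.5% of all genes were called. It was 1 from P0 to P7 with only the groups compared in the fit. With a 2-fold change also required it was 3 from P7 to adult, in Keap1-/- against wild type and in Keap1-/- against Nrf2-/-Keap1-/-. With own local background it was 2 from P7 to adult (1 higher and 1 lower), 1 in adult Nrf2-/- and 1 in the Nrf2 effect of adults minus that at P7, in both cases Tchh. In Keap1-/- against Nrf2-/-Keap1-/- it was 4 with Feature Extraction's processed signals, 5 with the deposited ratios and 5 with Cy5 alone. The cause of these shifts was not tested beyond the smaller number of genes tested.

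Leaving out 1 array at a time, the number called ran from 5 to 8 in the F-test, 4 to 6 from E15.5 to P0, 6 to 9 from E11.5 to P7, 3 to 7 from P7 to adult, 4 to 7 in Keap1-/- against wild type, 7 to 8 in Keap1-/- against Nrf2-/-Keap1-/- and 3 to 4 in the interaction. It stayed at 0 from E11.5 to E15.5, from P0 to P7, and in each comparison of Nrf2-/- or Nrf2-/-Keap1-/- with wild type and of the Nrf2 effect between ages. With the replicate block the counts were 7 in the F-test, 5 from E15.5 to P0, 9 from E11.5 to P7, 4 from P7 to adult, 6 in Keap1-/- against wild type, 7 in Keap1-/- against Nrf2-/-Keap1-/- and 4 in the interaction, and 0 in the other 6. The share of calls that were higher over all genes moved by over 10 percentage points with median centring, from 57.3% to 40.7% from E15.5 to P0, from 60.5% to 43.9% from P0 to P7, from 55.8% to 36.4% from E11.5 to P7, from 46.1% to 65.9% in Keap1-/-, from 52.6% to 38.4% in the interaction (2877 and 2731 calls), from 73.2% to 88.9% in Nrf2-/-Keap1-/- (82 and 72 calls), from 53.3% to 85% in adult Nrf2-/- (90 and 20 calls) and from 68.4% to 94.1% in the Nrf2 effect between ages (19 and 34 calls). In the last 2 the median over all genes was then 0.40 and 0.30. It was also 48.7% with the processed signals and 47.8% with the deposited ratios from P0 to P7, and 43% with Cy5 alone from E11.5 to P7. In Nrf2-/-Keap1-/- it was 52.3% with scale normalization and 57.6% with Cy5 alone, in adult Nrf2-/- from 28.6% to 36.7%, and in the Nrf2 effect between ages from 31.8% to 46.2%, with processed signals, deposited ratios, scale normalization or Cy5 alone. No fit with the slide as a block was made for Nrf2-/- or Keap1-/- against wild type at P7, and no slide held wild-type P7 arrays together with another P7 genotype. A decrease below background cannot be measured, as for Ivl in the embryo and Casp14 on some embryonic and Nrf2-/- P7 arrays.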
